A study of Mus musculus with 4 samples.

Results

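The somatic cells of the gonad owe their identity to a small set of transcription factors, and 10 of their genes are described here: Wt1, Gata4, Gata6, Lhx9, Nr5a1, Sox9, Sox8, Dmrt1, Nr0b1 and Tcf21. They were chosen by name, as factors of the gonadal ridge, of Sertoli cells and of interstitial cells, and make up 10 of the 55357 genes in the deposited count table. DDX20 (Gemin3) is an RNA helicase of the SMN complex, the machine that assembles spliceosomal ribonucleoproteins. RNA precipitated by an antibody to DDX20 (RIP, RNA immunoprecipitation) was sequenced beside input RNA, which was 10% of the total RNA. Both kinds of library were made from testis cells of C57BL/6 mice aged 7 days, with no mutation or treatment in the labels, and the cells had been exposed to 254 nm light at 200 mJ/cm2 to crosslink RNA to protein.

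There were 2 RIP libraries and 2 input libraries. The labels name the 2 RIP antibodies by catalogue numbers that differ in 1 character, and they do not say whether replicates came from separate cell preparations, so p-values rest on a spread between libraries that could be purely technical. Total counts were 38458014 and 37927689 in the RIP libraries and 21913977 and 21416567 in the input libraries. No precipitation with a control antibody was used here, so a difference is one between the share of RIP reads and the share of input reads, and not a measure of binding. Ddx20, which encodes the precipitated protein, had 77.6 and 83.2 CPM (counts normalised to library size, with TMM scaling) in RIP, against 41.4 and 41.2 CPM in input. The antibody acts on the protein and not on this message, so these values are no check of the labels.

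In the embryo, Wt1, Gata4, Lhx9 and Nr5a1 are needed for the gonadal ridge to form, and Sox9 then drives its supporting cells to become Sertoli cells. Sox8 acts beside Sox9, and Dmrt1 keeps Sertoli cells from turning into their ovarian counterpart. Nr5a1 (SF-1) activates steroid enzyme genes in Leydig cells and the hormone gene Amh in Sertoli cells, whereas Nr0b1 (DAX-1) restrains Nr5a1. Tcf21 marks interstitial and peritubular precursors. Several of these genes are active in more than 1 cell type: Wt1 and Gata4 are also known from mesothelium, the covering of the organ, and Dmrt1 from spermatogonia. In such mixed samples, fewer cells of a type and less RNA per cell cannot be told apart.

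Sox9 and Sox8 encode closely related proteins that bind DNA through an HMG box, and their sequences are shown to let a reader see how alike such genes are over the length of a read. Below are 150 bases, the length of 1 sequenced read, from the coding sequences of both, starting at a stretch of the HMG box that a search of the translated transcripts found once in each. They are bases 319 to 468 of the Sox9 coding sequence (chromosome 11) and bases 301 to 450 of that of Sox8 (chromosome 17), from the GENCODE M21 transcripts, with capitals where the 2 genes differ.
Sox9: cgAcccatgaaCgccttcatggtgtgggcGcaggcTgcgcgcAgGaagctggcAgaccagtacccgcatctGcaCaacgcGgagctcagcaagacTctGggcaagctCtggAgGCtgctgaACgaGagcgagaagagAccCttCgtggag
Sox8: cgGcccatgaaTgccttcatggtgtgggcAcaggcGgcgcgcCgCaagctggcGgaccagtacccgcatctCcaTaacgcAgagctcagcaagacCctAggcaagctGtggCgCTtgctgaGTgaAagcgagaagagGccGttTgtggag
The 2 stretches differ at 22 of 150 bases and at 1 of 50 codons in the amino acid they encode, which leaves 128 bases (85.3%) the same. Over the whole transcripts, the longest run shared without a mismatch was 23 bases between Sox9 and Sox8, 18 between Gata4 and Gata6 and 13 between Nr5a1 and Nr0b1. All of these are shorter than a read; whether reads were credited to the wrong gene of a pair was not tested.

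Nr0b1 is itself a known target of Nr5a1, which binds as a single molecule to sites that end in AGGTCA. The 250 bases before the RefSeq start of Nr0b1 are shown because both genes are measured here (GRCm38.p6, plus strand, chrX:86191525-86191774). The GENCODE M21 start of the gene, 86191764, lies inside this window, and the distances below are from the RefSeq start. Capitals mark AGGTCA and the TATA box letters TATAAA.
Nr0b1: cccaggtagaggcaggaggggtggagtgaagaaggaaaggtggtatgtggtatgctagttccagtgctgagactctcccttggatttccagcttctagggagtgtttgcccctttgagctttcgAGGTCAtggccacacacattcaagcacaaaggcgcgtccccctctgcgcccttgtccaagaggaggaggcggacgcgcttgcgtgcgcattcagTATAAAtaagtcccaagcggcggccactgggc
AGGTCA, searched on both strands, stood once in this window, with its first base 126 bases before the start, and 14% of the 32851 promoter windows of this length held it. TATAAA stood once, its first base 32 bases before the start, as in 12.4% of windows. Of the other 3 members in the promoter table (Sox8, Lhx9 and Tcf21), none held AGGTCA in its 250 bases. A GATA box, for which the letters AGATAA were searched on both strands, together with the forms AGATAG and also TGATAA and also TGATAG, stood once each before Lhx9 and Tcf21 and was found in 26.5% of windows. A SOX motif (AACAAT or AACAAAG) stood once before Lhx9 and was found in 13.8% of windows. These matches describe letters and were not tested as binding sites.

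In the precipitate, the 10 genes went separate ways (the plot of CPM in each library). Wt1, Gata4 and Gata6 were higher in RIP, Sox9 did not pass the test, and the other 6 were lower, with Lhx9 and Tcf21 furthest down. All 10 passed the low-count filter, with 40 to 9262 counts per library, and all were tested with the other genes by edgeR (quasi-likelihood test, Benjamini-Hochberg adjustment over 17422 genes, threshold 0.05). In that test 9 of the 10 were called, against 77.3% of all genes, 3 of them higher (38.7% of all genes) and 6 lower (38.6%). Values of the RIP and input libraries did not overlap for 9 of the 10, against 88.0% of all genes. The members' median log2 fold change was -0.27, beside -0.05 for all genes tested. The share called is therefore near the background, and the sizes and directions for single genes are what follows.

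**Figure D1:**
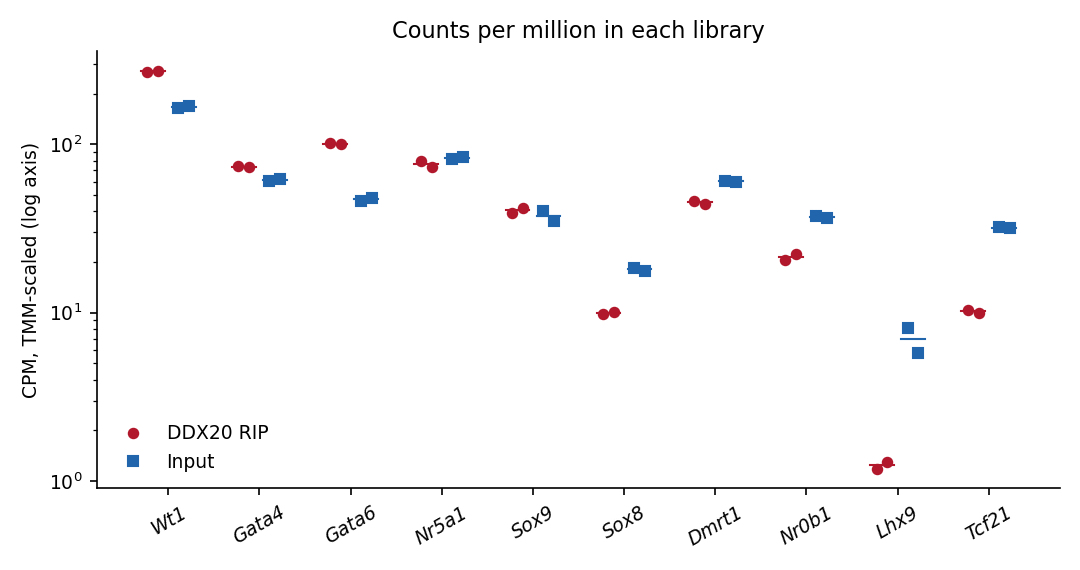
CPM (TMM-scaled, log axis) of the 10 factors in each library, with RIP as circles and input as squares; short lines are group means. RIP and input overlap for Sox9 and for none of the other 9, and Lhx9 is below 1.5 CPM in both RIP libraries.

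Wt1, a zinc finger factor of early gonad, Sertoli cells and mesothelium, had the most counts of the 10. It stood at 269.4 and 273.8 CPM in RIP, against 163.7 and 169.8 CPM in input. Both RIP libraries lay above both input libraries, and the 1.63-fold difference (log2 fold change 0.70 ± 0.0325, SE, n = 2 libraries per group) passed edgeR's test (adjusted p = 5.14e-20). Wt1 (ENSMUSG00000016458.16) lies on chromosome 2 from 105126529 to 105173616 (GRCm38), with 10 exons and a coding length of 1554 nt.

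Gata6, a zinc finger factor that Sertoli and Leydig cells share with Gata4, rose most of the members. Its values were 101.7 and 100.3 CPM in RIP and 46.2 and 48.1 CPM in input. The groups were far apart relative to their spread, with means of 101.0 ± 0.935 CPM in RIP and 47.2 ± 1.34 CPM in input (SD, n = 2 each). This is a 2.14-fold difference (log2 fold change 1.10 ± 0.0491, adjusted p = 1.99e-20, edgeR). The gene (ENSMUSG00000005836.11) lies on chromosome 18 from 11052064 to 11085635. Its counts could include a few reads of an opposite-strand transcript, 1010001N08Rik, which overlaps its exons by 93 nt and had 59 and 39 counts of its own in RIP and 63 and 60 in input, since the library kit does not mark strand.

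Gata4, which switches on Sertoli and steroid genes together with Nr5a1, moved much less. It had 74.1 and 73.1 CPM in RIP, against 60.2 and 62.6 CPM in input, so the groups did not overlap. Its log2 fold change of 0.26 ± 0.0503 passed edgeR's test (adjusted p = 2.05e-05) with TMM scaling, but it was -0.09 under total counts and -0.08 under the upper quartile, neither of which passed. Its call was also lost when the test asked for a change beyond 1.5-fold. Gata4 lies on chromosome 14 from 63198922 to 63271692.

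The ratio of the 2 GATA genes within each library needs no scaling between libraries, though it does not remove a trend with gene length (the plot of ratios within each library). There were 0.729 Gata4 counts for each Gata6 count in both RIP libraries, against 1.30 and 1.30 in the input libraries. Gata6 was thus the more counted of the 2 in RIP and the less counted in input. The log2 ratio differed by -0.84 between RIP and input, with all 4 libraries on their group's side, and the SD of the difference was 0.00248. That SD comes from 2 nearly equal ratios per group and is too small to be read as the precision of the difference. For comparison, the SEs of the single log2 fold changes were 0.0503 for Gata4 and 0.0491 for Gata6. The difference also changed with length. It was -0.41 with the exonic and -0.58 with the coding length offset, both applied to this ratio after seeing the data. The exact two-sided permutation test over 4 libraries gave p = 0.333 (0.333 after adjustment over the 3 pairs compared), which is the smallest value that 2 against 2 libraries allow.

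Zfpm2 (FOG2), the cofactor that Gata4 needs in the gonad, stood at 53.7 and 55.8 CPM in RIP, against 19.9 and 23.2 CPM in input. Its log2 fold change was 1.35 ± 0.0729 (adjusted p = 4.77e-18, edgeR), and 0.47 with the coding length offset, where it still passed.

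Nr5a1, the nuclear receptor of steroid-producing and Sertoli cells, differed little. It had 79.3 and 73.4 CPM in RIP and 81.8 and 84.3 CPM in input. The RIP values lay just below the input values, with a log2 fold change of -0.12 ± 0.0481 (adjusted p = 0.0222, edgeR). This call was lost without any 1 of the 4 libraries, where values ran from -0.14 to -0.03, and with RLE scaling (-0.10) or DESeq2 (-0.10). Nr5a1 lies on chromosome 2 from 38692656 to 38714542. An antisense gene, Nr5a1os, lies within its bounds but shares no exonic base with it.

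Nr0b1 encodes an orphan nuclear receptor without the usual DNA-binding domain and works as a brake on Nr5a1. It had 20.5 and 22.2 CPM in RIP, against 37.5 and 36.5 CPM in input. Each RIP value was well below each input value, and the log2 fold change of -0.79 ± 0.0754 passed edgeR's test (adjusted p = 1.63e-11). With an offset for the gene's total exonic length it stood at -0.06 and did not pass, since genes as short as Nr0b1 (1808 nt of exon) had a trend of -0.73 in the fit over all genes. With an offset for coding length it stood at -0.85 and passed. Nr0b1 lies on the X chromosome from 86191764 to 86195947.

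There were 3.87 and 3.31 Nr5a1 counts for each Nr0b1 count in RIP and 2.18 and 2.31 in input. The log2 ratio was higher by 0.67 in RIP (0.69 with the coding length offset), but its difference was -0.08 with the exonic length offset, which turns the direction. The exact permutation test gave p = 0.333, the smallest that 4 libraries allow.

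Lhx9, a LIM homeobox factor of the early gonadal ridge, was the least counted member and the one most depleted in RIP. Its deposited counts were 40 and 44 in RIP, against 200 and 139 in input, although the RIP libraries were the deeper ones. As CPM these are 1.18 and 1.30 in RIP and 8.11 and 5.75 in input, so the input libraries differed more from each other than the RIP libraries did. The log2 fold change was -2.48 ± 0.224 (a 5.57-fold lower level in RIP, adjusted p = 5.23e-12, edgeR), and it stayed between -3.10 and -2.12 in all 17 alternatives. Lhx9 lies on chromosome 1 from 138825186 to 138848577.

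Among the Sertoli factors, Sox9 did not differ beyond its spread. It had 39.2 and 42.1 CPM in RIP and 40.04 and 34.9 CPM in input, and the lower RIP library fell between the 2 input libraries. The log2 fold change of 0.12 ± 0.0704 did not pass edgeR's test (adjusted p = 0.133). The direction depended on the scaling, since under total counts (-0.23) and under the upper quartile (-0.23) Sox9 passed as lower. Without the low-count filter (0.17) it passed as higher, and without RIP replicate 1 it stood at 0.20. Sox9 lies on chromosome 11 from 112782224 to 112787760.

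Sox8 was lower in RIP, at 9.75 and 10.1 CPM, against 18.4 and 17.7 CPM in input. The 2 groups were clearly apart, by a 1.82-fold lower level in RIP (log2 fold change -0.86 ± 0.106, adjusted p = 6.55e-09, edgeR). Its exons share 329 of 3118 nt with an antisense gene, 2810468N07Rik, which had 250 and 256 counts in RIP and 371 and 370 in input, beside 330 and 342 in RIP and 453 and 428 in input for Sox8. Reads from the shared stretch cannot be told apart without strand, and how the counting treated them is not given in the sources used here. Sox8 lies on chromosome 17 from 25565892 to 25570686.

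For each Sox8 count there were 4.01 and 4.16 Sox9 counts in RIP and 2.18 and 1.97 in input, both RIP ratios above both input ratios. The log2 ratio was higher by 0.98 in RIP with an SD of 0.110, and by 0.72 with the exonic and 0.90 with the coding length offset (exact permutation test, p = 0.333, the smallest possible).

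**Figure D2:**
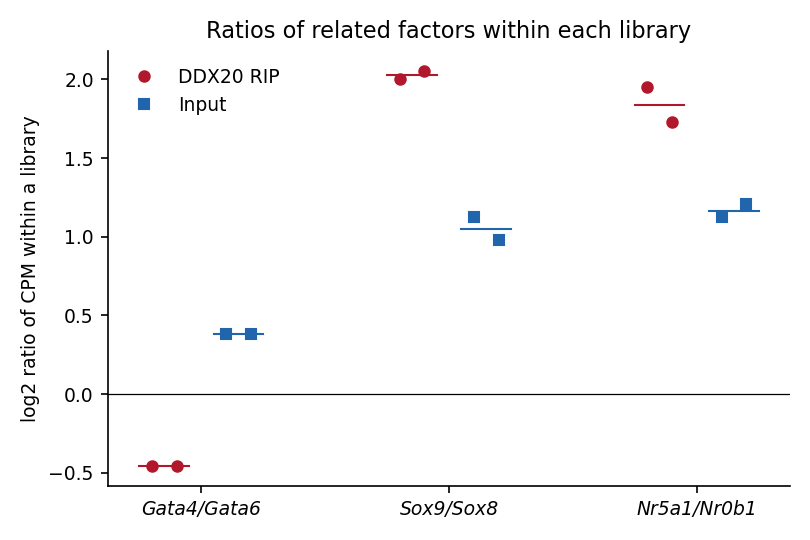
Log2 ratio of the CPM of 2 related factors within each library, for RIP (circles) and input (squares), with lines at group means. Gata4/Gata6 changes sign between RIP (-0.46) and input (0.38), and the other 2 ratios are higher in RIP, by 0.98 for Sox9/Sox8 and 0.67 for Nr5a1/Nr0b1 (-0.08 for the last with the exonic length offset, not plotted).

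Dmrt1, a DM-domain factor of Sertoli cells and spermatogonia, had 46.2 and 44.2 CPM in RIP, against 60.4 and 59.8 CPM in input. The groups did not overlap, and the log2 fold change was -0.41 ± 0.0573 (adjusted p = 8.43e-08, edgeR). It stood at -0.003 and did not pass with an offset for exonic length, and did not pass a test against 1.5-fold. Dmrt1 lies on chromosome 19 from 25505618 to 25604329.

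Tcf21, a basic helix-loop-helix factor of interstitial precursors, had 10.3 and 9.96 CPM in RIP, against 32.2 and 31.8 CPM in input. Its replicates were nearly equal in both groups, and the difference was 3.15-fold (log2 fold change -1.66 ± 0.0893, adjusted p = 4.49e-18, edgeR). It is also the member with the shortest coding sequence, 540 nt. Tcf21 lies on chromosome 10 from 22817281 to 22820174.

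The scaling changed the balance of directions. The median of all genes was -0.40 under total counts and -0.39 under the upper quartile, beside -0.05 with TMM, and the members shifted with it. Over all genes, 4994 were then called higher and 8845 lower under total counts, and 5022 and 8798 under the upper quartile, beside 6734 and 6727. In both of those settings Wt1 (0.36 and 0.36) and Gata6 (0.75 and 0.76) were still called higher, while Nr5a1, Sox9, Sox8, Dmrt1, Nr0b1, Lhx9 and Tcf21 were called lower (the plot of fold changes by setting). With an assumed coefficient of variation of 0.2 in place of the 0.0320 estimated from the libraries, a setting chosen after seeing the data, 2 members were called higher and 4 lower: Gata4, Nr5a1 and Dmrt1 lost their calls.

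**Figure D3:**
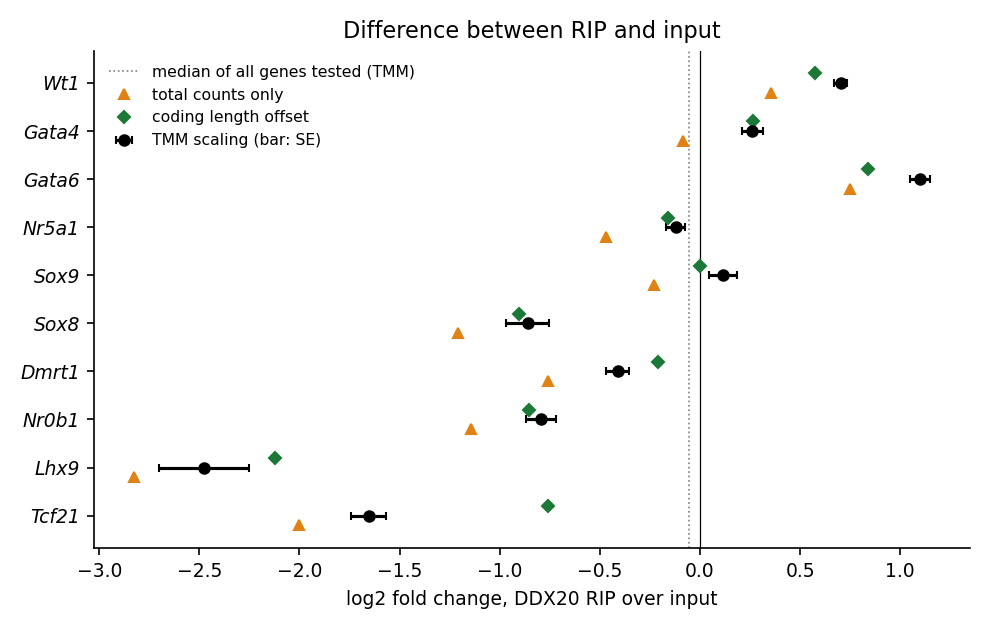
Log2 fold change of each factor, RIP over input, with TMM scaling (circles, bars are SE), with total counts only (triangles) and with an offset for coding length (diamonds); the dotted line is the median of all genes with TMM. Wt1 and Gata6 are right of 0 and Sox8, Dmrt1, Nr0b1, Lhx9, Tcf21 and Nr5a1 left of 0 in all 3, whereas Gata4 and Sox9 are left of 0 with total counts.

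Fold changes were also set against message length. Across the 14686 tested genes with a coding sequence, log2 fold change was higher for longer coding sequences (Spearman's rho 0.637, a description across genes, which are not independent). Over the 10 members rho was 0.745, from Tcf21 with the shortest coding sequence to Gata6 with the longest, 1770 nt. For total exonic length, rho was 0.346 over the members and 0.529 over all those genes. Lhx9 has the longest exonic sequence of the 10 in the annotation (9494 nt) but a coding length of 993 nt. Each coding length is that of a single annotated transcript chosen for the gene, and other transcripts were not tested. The part of length in the single differences was not tested, other than by the offsets.

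After the coding length offset, Sox9 stood at 0.002 and did not pass, and Tcf21, which had the lowest trend value of the members (-0.90), stood at -0.76. Wt1 stood at 0.57, Gata6 at 0.84, Gata4 at 0.27, Nr5a1 at -0.16, Dmrt1 at -0.21, Sox8 at -0.90 and Lhx9 at -2.12. The same 3 members were called higher and the same 6 lower as without the offset. With the exonic length offset Wt1 stood at 0.37, Gata6 at 0.73, Gata4 at 0.32 and Sox9 at 0.115. Nr5a1 then stood at -0.15, Sox8 at -0.61, Tcf21 at -1.155 and Lhx9 at -3.1. In that setting 3 members were called higher and 4 lower. Without an offset, Sox8, Nr0b1, Nr5a1 and Gata4 covered a range of log2 fold changes from -0.86 to 0.26. Their coding lengths lie between 1326 and 1419 nt.

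**Figure D4:**
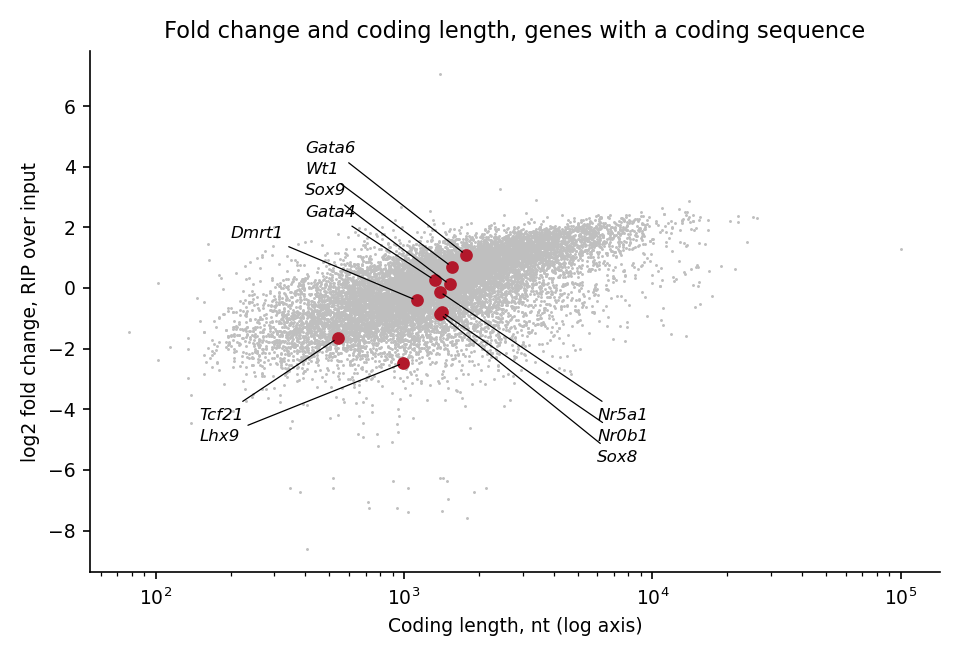
Log2 fold change, RIP over input, against coding length (log axis) for genes with a coding sequence (grey) and the 10 factors (red, named). Tcf21 is the shortest at 540 nt and Gata6 the longest at 1770 nt, and Lhx9 lies lowest of the 10, at -2.48.

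Levels of different genes were compared per length, as CPM per kilobase of exonic sequence (the plot of level per length). In input, Wt1 stood highest at 26.9 ± 0.698 (mean ± SD, n = 2), followed by Dmrt1 at 23.2 ± 0.155, Nr0b1 at 20.5 ± 0.382 and Nr5a1 at 19.6 ± 0.424. Gata4 (15.7 ± 0.421), Tcf21 (13.6 ± 0.116), Sox9 (9.06 ± 0.880), Gata6 (7.25 ± 0.207) and Sox8 (5.79 ± 0.145) came next, and Lhx9 was last at 0.730 ± 0.175. No 2 neighbours in this order overlapped between their input libraries. Per length of the longest annotated transcript instead, Nr5a1 (27.7) stood above Dmrt1 (25.7) and Nr0b1 (20.5), and Gata6 (12.5) above Sox9 (9.06). Wt1 then stood at 54.0 and Lhx9 at 1.40, so these levels depend on the length used by more than their SD.

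In RIP the order was another one. Wt1 was again first at 43.8 ± 0.505 CPM per kilobase, followed by Gata4 (18.9 ± 0.176), Nr5a1 (18.0 ± 0.985), Dmrt1 (17.4 ± 0.531) and Gata6 (15.5 ± 0.144). Nr0b1 (11.8 ± 0.660), Sox9 (9.82 ± 0.496), Tcf21 (4.32 ± 0.115) and Sox8 (3.19 ± 0.0806) followed, and Lhx9 stood at 0.131 ± 0.00881. Nr5a1 and Dmrt1 were the only neighbours whose RIP libraries overlapped.

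**Figure D5:**
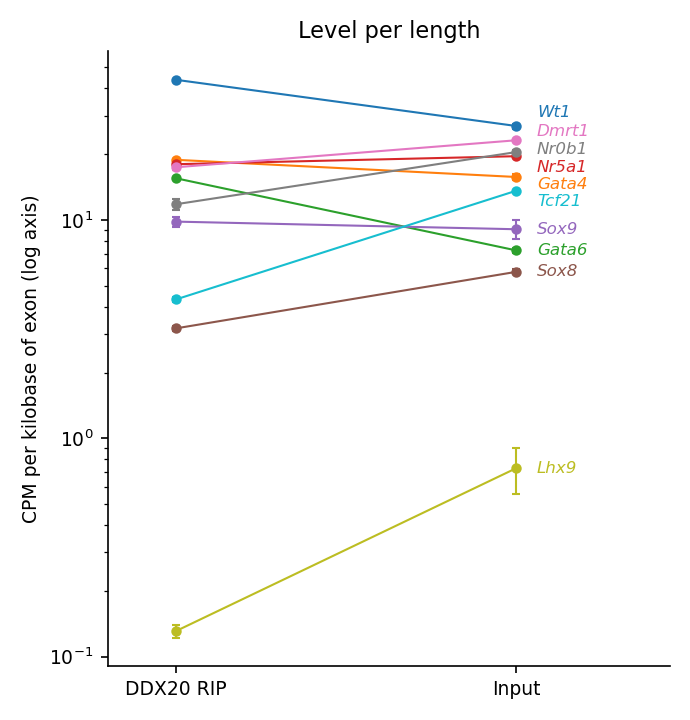
Mean level of each factor per kilobase of exonic sequence (CPM per kilobase, log axis; bars are SD of 2 libraries) in RIP, on the left, and input. Wt1 is highest and Lhx9 lowest in both, Gata6 is lower in input (7.25) than in RIP (15.5), and Tcf21 is higher in input (13.6) than in RIP (4.32).

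Markers of several lineages stood beside these factors in the same RNA. Sertoli cell products were abundant, and Amh, a shared target of Nr5a1, Sox9, Wt1 and Gata4, had 156.4 and 162.1 CPM in RIP and 376.2 and 363.6 CPM in input (log2 fold change -1.22 ± 0.0315, adjusted p = 2.39e-27, edgeR). Of 22 Sertoli cell targets and markers tested, 5 were higher in RIP and 16 lower, with a median log2 fold change of -1.17. With the coding length offset 5 were higher and 14 lower, with a median of -0.89. By input level Clu (-0.67), Ctsl (-0.30) and Inha (-1.19) led this list, and Ctsl turned to 0.05 with the coding length offset, where it did not pass. The summed level of all its 23 genes was 4135 and 4111 CPM in RIP and 5852 and 5814 CPM in input.

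Leydig and steroidogenic genes, the best known targets of Nr5a1, were mostly lower in RIP. Of 13 tested 1 was higher and 11 lower, with a median of -0.82, and the most abundant in input were Fdxr (-0.20), Hsd3b1 (-1.61) and Scarb1 (-0.32). Scarb1, a receptor that takes up cholesterol, was also the listed gene nearest to Nr5a1 across the 4 libraries (a distance of 0.210 on the log2 CPM scale, among 141 candidates). Star, which brings cholesterol into mitochondria, was nearest to Nr0b1 (0.240). Such distances mix level and fold change, and macrophage markers were nearest to Sox8 and Tcf21. Whether any of these pairings reflects regulation was not tested.

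Mesothelial markers, which share Wt1 and Gata4 with the supporting lineage, included highly counted genes. Krt19 had a mean of 1126 ± 11.2 CPM in RIP and 773.6 ± 8.31 CPM in input, and Upk3b had 794.7 ± 21.7 CPM in RIP and 622.0 ± 11.8 CPM in input (SD, n = 2 each). Of the 10 mesothelial genes 6 were higher in RIP and 2 lower (median log2 fold change 0.44), but 3 and 3 with total counts, where Upk1b stood at -0.15 beside 0.20 with TMM. Upk3b, at 0.35 with TMM, stood at 0.005 with total counts and did not pass. With the coding length offset 7 genes of the list were higher and 1 lower, with a median of 0.71. The list summed to 3112 and 3066 CPM in RIP, against 2069 and 2112 CPM in input. None of its genes was at 0, but Krt7, Cldn15 and Lrrn4 had means of only 0.697, 0.533 and 0.369 CPM in input. The part of this list in the levels of Wt1, Gata4 and Gata6 was not tested.

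Stromal genes split in the precipitate, with 5 of 16 peritubular and interstitial markers higher and 8 lower (median -0.38), and 2 and 12 with total counts. With the coding length offset the split was 2 higher and 9 lower. Col1a1 (1.59) and Col1a2 (1.04) were higher with TMM and with total counts, but Col1a2 stood at 0.03 and did not pass with the coding length offset, while Vim stood at 0.30 and turned to -0.05 with total counts. The sums were 8990 and 8795 CPM in RIP and 4914 and 4921 CPM in input. Most of the RIP sums came from Col1a1 (4969.5 and 4778.1 CPM, against 1608.8 and 1631.5 CPM in input) and Col1a2 (1827.7 and 1811.5 CPM, against 886.0 and 880.6 CPM). The higher sums in RIP rest on these 2 collagens and do not describe the list, of which 8 genes were lower. Germ cell markers, of interest for Dmrt1, were higher in 6 of 18 cases and lower in 10 (median -0.76), against 1 and 13 with total counts and 2 and 14 with the coding length offset. By input level Uchl1 (-0.86), Tex101 (-1.44) and Mael (-1.84) led them, and the list summed to 743.4 and 739.8 CPM in RIP and 1342 and 1338 CPM in input.

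Other regulators of gonad formation differed from the 10 in their balance, with no test of that difference. Of 27 tested 16 were higher in RIP and 7 lower, with a median of 0.20, against 12 and 14 and a median of -0.14 with total counts. Ctnnb1 (1.48), which encodes beta-catenin, and Sox4 (0.73) had the highest CPM of this list in input, and both were also higher in RIP with total counts (1.13 and 0.38). Sry, the male switch gene of the embryo, was at 0 counts in all 4 libraries.

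Genes of the ovarian pathway gave mixed values. Foxl2, which defines granulosa cells, was at 0 counts in all 4 libraries, which allows up to 3 counts in each, or 0.0780 and 0.0791 CPM in RIP and 0.137 and 0.140 CPM in input before TMM scaling (counting error only). Of the 7 others on the list 3 were higher in RIP and 1 lower (median -0.39), but 1 and 3 with total counts and 3 and 0 with the coding length offset. Wnt4 (1.31), Rspo1 (-0.39) and Fst (0.79) had the highest CPM in input, and Wnt4 had 48.2 and 47.4 CPM in RIP, against 19.5 and 18.9 CPM in input. Rspo1 had an adjusted p of 0.04998 (edgeR) and lost its call with RLE scaling, and it turned to 0.18 with the coding length offset, where it did not pass.

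Lists of further cell types were also measured. Endothelial markers summed to 257.8 and 250.7 CPM in RIP and 161.2 and 165.8 CPM in input, led by Flt1, Cdh5 and Egfl7, with 2 of 8 higher and 5 lower (median -0.85). Without Flt1 that sum was 44.2 and 44.1 CPM in RIP and 98.4 and 100.5 CPM in input, the opposite direction. Macrophage markers, led by Lyz2, C1qa and C1qb, summed to 61.8 and 58.5 CPM in RIP and 180.8 and 176.6 CPM in input, with 7 of 8 lower (median -1.56). Red blood cell markers, led by Hba-a1, Hbb-bs and Hba-a2, summed to 76.3 and 76.8 CPM in RIP and 268.7 and 272.0 CPM in input, with 5 of 5 lower (median -2.11). With the coding length offset the medians were -1.135 for macrophage markers, with 8 of 8 lower, and -1.09 for red blood cell markers, with 5 of 5 lower.

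Adrenal cortex, whose cells also depend on Nr5a1 and Nr0b1, gave little signal. Its 5 markers summed to 2.28 and 2.75 CPM in RIP and 8.11 and 8.32 CPM in input, and the 2 that could be tested, Akr1b7 and Cyp21a1, were lower in RIP (median -1.61). Akr1b7 was the listed gene nearest to Lhx9 (distance 0.644). Markers of rete testis, efferent ducts and epididymis summed to 387.6 and 372.2 CPM in RIP and 161.2 and 161.3 CPM in input, most of it Krt14, a keratin known from many epithelia, which had 368.1 ± 10.7 CPM in RIP and 143.8 ± 2.01 CPM in input. Without Krt14 that sum was 11.9 and 11.7 CPM in RIP and 18.8 and 16.1 CPM in input, the opposite direction. Of the 5 tested, Krt14 among them, 1 was higher and 2 lower (median -0.05). After Krt14 the most abundant was Esr1, at 6.93 CPM in RIP and 7.17 CPM in input. Pax8 followed, at 2.25 CPM in RIP and 5.02 CPM in input.

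For the remaining members the nearest listed genes were Krt14 for Wt1 (0.692), Maf for Gata4 (0.324), Zfpm1 for Gata6 (0.558), Ptch1 for Sox9 (0.396), Cd68 for Sox8 (0.242), Cyp17a1 for Dmrt1 (0.460) and C1qa for Tcf21 (0.2004). These distances over 4 libraries mix level and fold change and carry no test.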

How the data were processed

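RNA from testis cells was measured in 2 DDX20 RIP and 2 input libraries, grouped and numbered from the sample titles. The deposited file holds raw counts per gene; per the submitters' processing notes, the tools included STAR 2.7.2b and featureCounts on GRCm38, SAMtools, and cutadapt 4.1 and Trimmomatic 0.36, with order, settings and annotation release not given in the sources used here. Between 65.4% and 67.4% of nonzero counts were even, so mates may have been counted separately and depth overstated. Identifiers were matched without version to GENCODE M21 (52081 of 55357, 94.1%), which gave symbols, coordinates and lengths; only 35 carry the same version.

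Genes were kept by filterByExpr, scaled by TMM and tested with edgeR 4.0.16 (robust quasi-likelihood) in R 4.3.3 with Benjamini-Hochberg adjustment. Each SE is |log2 fold change| over the square root of F. In simulated counts for RIP against input (200 changed genes in all, 50 at each fold) the fit recovered 92%, 94%, 98% and 100% of genes changed by 1.5-, 2-, 4- and 8-fold, and called 5 of 16739 unchanged ones. The simulation assumed a coefficient of variation close to the 0.0320 estimated from these libraries, whose spread could be purely technical. It held no trend with length and few changed genes, whereas 77.3% of genes were called here. It therefore checks the code and not the calls in these data. Alternatives were RLE, upper-quartile and total-count scaling, DESeq2 1.42.0, limma-voom 3.58.1, other filters on low counts, halved counts, a test against 1.5-fold, a replicate block, loess offsets (span 0.3) for exonic and coding length, leaving out each library and, added after seeing the data, an assumed coefficient of variation of 0.2, length offsets for the ratios and 2 list sums without their leading gene. From each list the 3 tested genes with the highest mean CPM in input were named, as were Zfpm2, Amh and Ddx20; 1 gene that this rule names is not reported here. The nearest listed gene is that with the smallest Euclidean distance of log2 CPM (prior count 2). Members and lists were chosen with earlier results of these data known.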

Additional observations from a re-analysis of the deposited data

How the results depend on the processing

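Over 17 alternatives for each of the 10 members, 149 of 170 fold changes kept their direction and their side of the threshold, 15 lost the call, 2 gained one and 4 turned. Wt1, Gata6, Sox8, Lhx9 and Tcf21 kept theirs in all 17. The 4 that turned were Gata4 under the upper quartile (-0.0804) and under total counts (-0.0868), and Sox9 in the same 2 settings (-0.226 and -0.232). Of the 9 lost by Nr5a1, 4 came from leaving out 1 library; Gata4 and Dmrt1 lost theirs against 1.5-fold and with the assumed variation, and Dmrt1 and Nr0b1 with the exonic length offset. The cause was not tested. Over all genes, 4210 were higher and 4426 lower in RIP against 1.5-fold, beside 6734 and 6727. After the coding length offset 6569 were higher and 4281 lower. That fit held only the 14686 genes with a coding sequence and not all 17422, so its counts cannot be set directly beside the others. Leaving out 1 library gave 6231 to 6569 genes higher and 5071 to 5815 lower, and 3 to 4 members higher and 5 lower. Log2 ratios, RIP minus input, ranged from -0.839 to -0.836 for Gata4/Gata6, from 0.906 to 1.05 for Sox9/Sox8 and from 0.56 to 0.786 for Nr5a1/Nr0b1. With the exonic length offset, applied to the ratios after seeing the data, they were -0.412, 0.723 and -0.0848, the last one turned, and Gata4/Gata6 was -0.575 with the coding length offset. Replicate numbers pair no libraries in the labels, and differences within groups did not go together by number (r = 0.00523 over 9828 genes); with the replicate block 6734 genes were higher and 6655 lower, and no member's call changed. Lhx9, at 40 to 200 counts, is the member that depth limits most.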
